A study of Mus musculus with 6 samples.

Results

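The regions described here are wide stretches of chromatin, 0.451 kb each, that lie between genes, over 2.5 kb and at most 100 kb from the nearest end of a protein-coding gene. They come from a list of merged ATAC-seq regions in sorted basal prostate stem cells. A region was kept where it had this width and its centre lay outside every RefSeq protein-coding gene. Of the 6502 listed regions, 3291 had this width, called wide below, and 981 of these met the rule. A further 1135 regions of 0.143 kb, the other common width in the list and called narrow below, lay in the same window and served as the comparison. The 981 members had 840 protein-coding genes as their nearest gene, 3.84% of the 21887 genes placed.

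ATAC-seq uses the Tn5 transposase, which cuts and tags DNA where it is not wrapped in nucleosomes, so that sequenced fragments pile up over accessible chromatin. Accessible stretches between genes often hold enhancers, short sequences that bind transcription factors and can act on a promoter many kilobases away. The gene nearest to such a stretch is not always the gene it acts on, so gene names below give a position and no target. In the prostate, basal cells line the basement membrane beneath the secretory luminal cells, carry the transcription factor p63, and include progenitors that sustain the epithelium.

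The study compared 3 naive and 3 inflamed libraries of freshly sorted CD45-CD31-Sca-1+CD49f+ cells from mouse prostate, a gate that leaves out leukocytes and endothelial cells. POET3 mice express ovalbumin in the prostate, and were inflamed by transferring activated spleen cells of OT-1 mice, whose T cells recognise ovalbumin, with harvest 7 days later. The genotype label was WT with the treatment control for the naive libraries, and POET3 with the treatment inflamed for the others, although the extraction protocol spoke of POET3 mice for both. Genotype label and inflammation therefore cannot be told apart. The list holds only a chromosome, a start and an end, so it gives no signal per library, no direction of change between naive and inflamed cells, no depth and no error between replicates. The sorted identity could not be checked against marker signal for the same reason, and what sets the width of a region is not given in the sources used here. The submitters' name for the list contains the letters diff, and edgeR is among the tools they named. Whether the list holds all accessible regions or only those that differed between groups is not given in the sources used here. A gene without a listed region may therefore still have accessible chromatin nearby.

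Part of the sequence of some members could be read, because 29 of the 981 overlapped a 300-base window around the start of a RefSeq gene (250 bases before the start and 50 after it), and 9 held such a window whole. All of these starts belonged to non-coding genes. The share with the centre inside such a window was 1.53% (15 of 981) against 0.793% (9 of 1135) for the narrow flanking regions (two-sided Fisher's exact test, p = 0.149). The overlaps below are written 5′ to 3′ on the strand of the non-coding gene, from RefSeq on GRCm38.p6, the assembly also named mm10. Capitals mark matches to transcription factor motifs. The first 3 are shown because they lie near an NF-kB inhibitor gene, an integrin gene and a prostaglandin receptor gene, and the other 5 because they hold a match to a CTCF, steroid receptor, AP-1 or NF-kB motif.
Gm51814, chr10:19062529-19062617, plus strand, near Tnfaip3: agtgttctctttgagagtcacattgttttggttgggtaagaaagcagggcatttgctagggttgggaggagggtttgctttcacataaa
Gm41075, chr13:115109625-115109924, plus strand, near Itga1: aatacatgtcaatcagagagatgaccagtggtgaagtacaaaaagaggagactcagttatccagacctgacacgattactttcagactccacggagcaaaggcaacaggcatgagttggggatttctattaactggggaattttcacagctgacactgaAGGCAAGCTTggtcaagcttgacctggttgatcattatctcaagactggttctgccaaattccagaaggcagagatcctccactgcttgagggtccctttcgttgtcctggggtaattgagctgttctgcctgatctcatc
Gm31596, chr3:151912147-151912367, minus strand, near Ptgfr: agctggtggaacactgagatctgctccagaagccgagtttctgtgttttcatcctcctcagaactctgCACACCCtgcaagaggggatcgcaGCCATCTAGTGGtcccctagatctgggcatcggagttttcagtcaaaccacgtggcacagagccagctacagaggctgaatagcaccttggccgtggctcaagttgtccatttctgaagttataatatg
Gm4319, chr1:72123709-72123934, minus strand, near Mreg: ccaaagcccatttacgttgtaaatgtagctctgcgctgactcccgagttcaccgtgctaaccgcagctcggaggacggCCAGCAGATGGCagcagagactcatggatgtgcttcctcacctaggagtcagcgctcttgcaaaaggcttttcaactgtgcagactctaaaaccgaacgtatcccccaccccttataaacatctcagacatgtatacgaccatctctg
Gm34099, chr8:57410180-57410388, plus strand, near Scrg1: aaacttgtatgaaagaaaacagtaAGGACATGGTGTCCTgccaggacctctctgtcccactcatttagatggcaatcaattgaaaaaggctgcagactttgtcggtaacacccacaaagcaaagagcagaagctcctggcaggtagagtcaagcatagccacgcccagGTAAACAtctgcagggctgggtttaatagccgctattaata
A230028O05Rik, chr16:25059389-25059440, plus strand, near Lpp: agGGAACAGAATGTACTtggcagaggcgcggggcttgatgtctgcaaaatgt
D330050G23Rik, chr2:116899902-116900122, plus strand, near Tmco5: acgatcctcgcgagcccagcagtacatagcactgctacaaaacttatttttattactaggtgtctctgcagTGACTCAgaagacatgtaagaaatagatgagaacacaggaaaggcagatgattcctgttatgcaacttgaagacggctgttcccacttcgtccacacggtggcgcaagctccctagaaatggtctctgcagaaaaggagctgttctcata
Gm39081, chr7:121539826-121539981, minus strand, near Hs3st2: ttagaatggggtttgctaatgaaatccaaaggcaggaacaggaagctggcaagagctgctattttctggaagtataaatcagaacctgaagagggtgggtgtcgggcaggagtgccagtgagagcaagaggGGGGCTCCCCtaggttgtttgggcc

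The stretch near Tnfaip3 held no match in capitals. In lower case it holds CATTGT, the SOX motif, and TTGGGTAA, a match to the CEBP motif, which both fall below the limits for capitals. In capitals, the one near Itga1 matched the p53 family motif (AGGCAAGCTT), and the one near Ptgfr matched KLF (CACACCC) and CTCF (GCCATCTAGTGG). CTCF, a zinc finger protein that anchors chromatin loops, was matched again near Mreg (CCAGCAGATGGC). Motifs were counted in 21 windows, 1 for each member that covered a window by at least 150 bases. Among these windows, the CTCF motif was matched in 2, or 9.52%, against 0.552% of all 11588 non-coding start windows of the same length. The steroid receptor motif, the inverted repeat bound by receptors of steroid hormones, was matched near Scrg1 (AGGACATGGTGTCCT) and, in a shorter overlap, near Lpp (GGAACAGAATGTACT). It was matched in 1 of the 21 windows (4.76%) and in 0.242% of all non-coding windows. The FOX motif TGTTTAC, bound by forkhead factors, was matched in 3 of 21 (14.3% against 4.83%) and the p53 family motif in 3 of 21 (14.3% against 10.2%). Whole windows were counted, so a match can lie outside the member. Within the overlaps with members, FOX was matched near Stpg2 and Scrg1 only. AP-1, written TGACTCA or TGAGTCA, was matched in 1 of 21, near Tmco5 (4.76% against 6.20%), and NF-kB in 1 of 21, near Hs3st2 (4.76% against 3.94%). The remaining motifs went both ways. Lower than over all non-coding windows were, among others, TCF/LEF (TTTGAT) in 0 of 21 against 15.3%, TEAD (GGAATG) in 1 of 21 (4.76% against 16.6%) and STAT (TTCNNNGAA) in 1 of 21 (4.76% against 9.41%). Higher were, among others, the ETS core (MGGAAG) in 13 of 21 (61.9% against 42.7%), KLF in 3 of 21 (14.3% against 7.83%) and CACGTG in 3 of 21 (14.3% against 5.89%). All 30 motifs were searched on both strands with overlapping matches allowed, and the counts describe letters in 21 windows, not binding. The median GC content of those 21 windows was 50.7%, and 48.3% over all non-coding windows.

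The members were spread over the whole window, with the lowest density in the bin nearest to genes and the highest in the next. Their distances to the nearest gene end ran from 2.591 to 99.949 kb, with quartiles at 11.045, 26.475 and 51.135 kb. Per Mb of sequence between genes, members numbered 0.951 from 2.5 to 5 kb, 1.41 from 5 to 10 kb, 1.27 from 10 to 25 kb, 1.30 from 25 to 50 kb and 1.15 from 50 to 100 kb. The narrow regions numbered 1.34, 1.52, 1.69, 1.48 and 1.13 per Mb in the same bins. Closer in, the wide regions stood at 4.46 per Mb in the first 1 kb from a gene end and 0.871 from 1 to 2.5 kb, against 2.61 and 1.74 for narrow regions. The lower limit of 2.5 kb thus lay past the dense bin at gene ends. Within 25 kb of a gene end lay 48.2% of members (473 of 981) and 52.6% of the narrow regions (597 of 1135). That difference of -4.38 percentage points (95% interval -8.63 to -0.112) did not pass the threshold of 0.05 after adjustment over 4 share tests (Fisher's exact test, adjusted p = 0.0601).

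**Figure D1:**
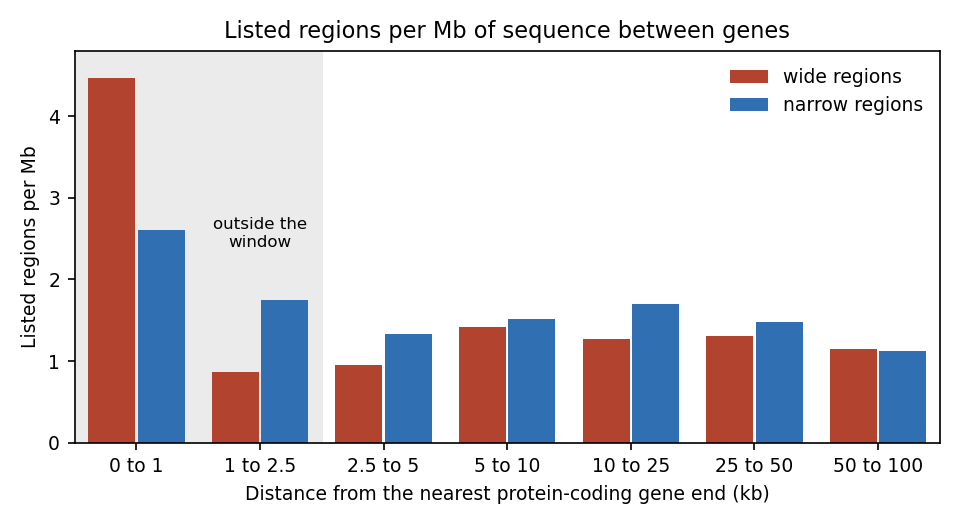
Listed regions per Mb of sequence outside protein-coding genes (y axis) by distance from the nearest gene end in kb (x axis), for wide regions (red) and narrow regions (blue); the grey bins lie outside the window. From 2.5 kb outward the red bars stay between 0.951 and 1.41 per Mb, after 4.46 in the first 1 kb.

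At the lower limit, the members with the smallest distances were at Tmem170b (2.591 kb), Kcnk2 (2.654 kb) and Ermn (2.737 kb), and the wide regions just outside it were at Itprid2 (2.494 kb), C1galt1 (2.447 kb) and Cd6 (2.407 kb). At the upper limit, members at Tbl1x (99.949 kb), Chmp2b (99.86 kb) and Prim2 (99.611 kb) were kept, and regions at Cand1 (100.013 kb), Reep3 (100.234 kb) and Mbnl1 (100.689 kb) were not. Members lay about equally on both sides of their gene. Of the 759 whose nearest gene had a strand in the RefSeq start table, 391 lay upstream (51.5%, 95% interval 47.9 to 55.1), against 469 of 868 (54.0%) for narrow regions. By Fisher's exact test the p for this difference was 0.320. The gap between the flanking genes had a median of 142 kb around members and 120 kb around narrow regions, and a gene on the other side also lay within 100 kb for 47.7% and 55.2%.

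Close neighbours were rarer among members than among narrow flanking regions. Within 10 kb, 59 of 981 members (6.01%, 95% Clopper-Pearson interval 4.61 to 7.69) had another member, against 176 of 1135 narrow regions (15.5%, 13.4 to 17.7). The difference was -9.49 percentage points (-12.1 to -6.90), with an adjusted p of 3.97e-12 by Fisher's exact test. No member had another within 1 kb, a share of at most 0.375%, while 50 narrow regions (4.41%) did. The closest members were 1248 bases apart, at Snap25, a gene of synaptic vesicle fusion, and the closest pair among all 3291 wide regions was 1164 bases apart. The closest narrow flanking regions were 282 bases apart, and 56 pairs among all 3210 narrow regions lay under 1 kb apart where no wide pair did. With narrow regions closer than 1164 bases counted once, their share was 11.1% and the difference -5.11 points (adjusted p = 6.95e-05). At wider windows the shares approached each other: 15.3% against 22.6% at 25 kb, 25.0% against 27.6% at 50 kb and 32.8% against 35.5% at 100 kb. Members were not set apart in this from other regions of their own width, since 58 of the 1129 wide regions deep inside genes (5.14%) had a neighbour of that class within 10 kb (difference 0.877 points, adjusted p = 0.461).

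**Figure D2:**
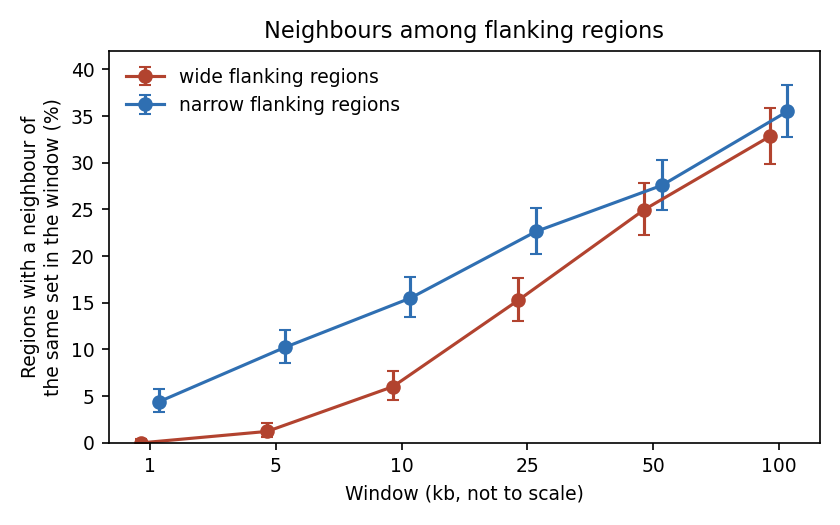
Share of flanking regions, in percent (y axis), with another flanking region of the same width inside a window in kb (x axis, evenly spaced steps), for wide (red) and narrow regions (blue); bars are 95% Clopper-Pearson intervals. The red points start at 0 at 1 kb and reach 32.8% at 100 kb, close to the blue 35.5%.

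Chains of members each within 10 kb of the next numbered 29, and the longest held 3. It lay upstream of Dnah7a, an axonemal dynein heavy chain gene, at chr1:53715899-53729212, inside the lncRNA gene Gm32311. Pairs lay near Ralgps2, between Itih2 and Itih5, which encode heavy chains of inter-alpha-trypsin inhibitors, downstream of Spred1, near Snap25, and between the cystatin genes Cstdc2 and Cst3. Only 31 members (3.16%) had a narrow flanking region within 10 kb.

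A minority of members had a nearest gene with a listed region at an end, and such end regions were more often wide than narrow. The nearest gene of 151 members (15.4%, 13.2 to 17.8) had a wide region within 2.5 kb of an end, while 33 of the narrow flanking regions (2.91%, 2.01 to 4.06) had a nearest gene with a narrow end region. The difference was 12.5 points (10.1 to 15.0, Fisher's exact test, adjusted p = 8.68e-25), beside a share among all protein-coding genes of 3.34% for wide and 1.69% for narrow end regions. Set against the same wide end regions, members still stood above the narrow flanking regions, with 15.4% against 7.67% (87 of 1135, difference 7.73 points, 5.01 to 10.5, adjusted p = 5.22e-08 over 2 tests). For narrow end regions the order was the opposite, 0.714% (7 of 981) against 2.91% (difference -2.19 points, adjusted p = 0.000166). Myc, Snai2, Gja1 and Steap4 were such genes, with a wide region 0.061, 0.024, 0.034 and 0.03 kb from an end beside a member further out.

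Most of the 840 genes had 1 member. Another 110 had 2, 11 had 3 and 3 had 4, and 38 had members on both sides. A wide region inside the gene was also present for 181 of them. The narrow flanking regions had 963 nearest genes, 4.4% of all, and 123 genes were shared, 14.6% of the genes of members and 12.8% of the others.

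Mbnl1, Clvs1 and Pja1 had the most members, 4 each. Those of Mbnl1, a regulator of alternative splicing, lay upstream of the gene at 12.5, 34.5, 48.1 and 63.9 kb, from chr3:60408470 to chr3:60460308. Those of Clvs1, a clathrin vesicle-associated protein gene, lay between it and Chd7 at 8.68, 20.7, 47.5 and 62.4 kb. Pja1, a RING ubiquitin ligase gene on chromosome X, had members at 33.2 kb toward Efnb1 and at 33.3, 51.6 and 60.0 kb toward Tmem28. Genes with 3 members included the carbonic anhydrase gene Car3, Dnah7a, the fatty acid elongase gene Elovl4, Hpgd, Klhl31, Ly86, Mis18a and Parm1. The members of Car3 lay at 4.36, 9.18 and 24.0 kb, close to the gene.

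Of the 21 chromosomes, 5 held unlike shares of the wide and narrow flanking regions, or 23.8% of those tested (Fisher's exact test with Benjamini-Hochberg adjustment). Chromosome X held 51 members (5.20%, 3.89 to 6.78) and 16 of the narrow regions (1.41%, 0.808 to 2.28), with an adjusted p of 1.31e-05. Per Mb of flanking sequence these were 0.810 and 0.254, so members were thinner on X than on the genome as a whole (1.23 per Mb), and narrow regions thinner still. Members held the larger share on chromosome 10 (7.54% against 4.14%, adjusted p = 0.00500) and chromosome 13 (7.85% against 4.05%, adjusted p = 0.00265). They held the smaller share on chromosome 11 (2.75% against 5.90%, adjusted p = 0.00306) and chromosome 14 (2.55% against 4.85%, adjusted p = 0.0249). Chromosome 14 did not pass when regions within 10 kb were counted once or when the upper limit was 50 kb, and chromosome 11 did not when all RefSeq genes were used to place regions. Against the wide regions deep inside genes none of these 5 differed past the threshold, and only chromosome 3 did, with 8.46% of members and 5.05% of deep regions.

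**Figure D3:**
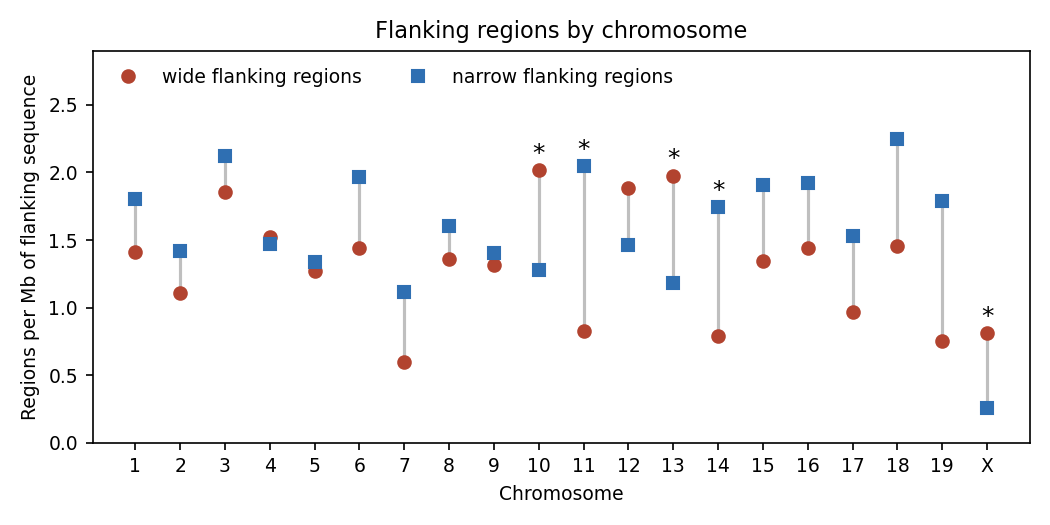
Flanking regions per Mb of flanking sequence (y axis) on each chromosome (x axis), for wide (red circles) and narrow regions (blue squares); asterisks mark an adjusted p under 0.05 for the share of all flanking regions, and chromosome Y is not drawn. Red lies above blue on 10, 13 and X and below it on 11 and 14.

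The most crowded 1 Mb held 10 members at chr5:90650746-91629859, a stretch that carries a cluster of chemokine genes and the genes of 4 ligands of EGF family receptors. Chemokines draw leukocytes into tissue, and the ligands epigen, epiregulin, amphiregulin and betacellulin bind EGF receptors on epithelial cells. From one end to the other, members lay 10.2 kb from Rassf6, 41.0 kb downstream of Cxcl15 on the side of Cxcl1, and 3.22 and 11.5 kb downstream of the neutrophil chemokine gene Cxcl2. Further along, members lay 3.603 kb downstream of Epgn, 10.9 kb from Ereg with Areg 35.1 kb away on the other side, 64.0 kb downstream of Btc, and at 50.7 and 40.7 kb upstream and 5.62 kb downstream of Parm1, which encodes a mucin-like protein found in prostate. The map of the stretch shows these 10 with 4 more wide regions at gene ends: 0.919 kb from Cxcl5, 0.146 kb from Epgn, and just inside Mthfd2l and Parm1. Narrow regions numbered 3, and 2 of them were flanking. The stretch was chosen for its count, which is a description.

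**Figure D4:**
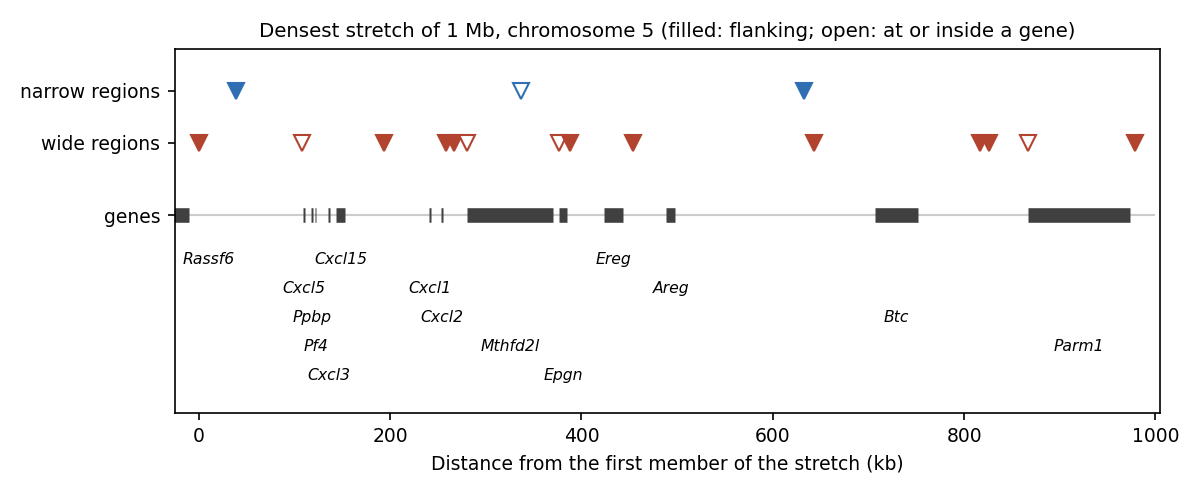
Listed regions (triangles, one row for each width) and protein-coding genes (dark blocks) along the most crowded stretch of chromosome 5, by distance in kb from its first member (x axis). Filled triangles are flanking regions and open ones lie at or inside a gene; 14 of the 17 regions are wide.

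Among the other stretches of 1 Mb, 2 held 7 members and 5 held 6. The 7 at chr4:10789212-11692200 lay near Plekhf2, Ndufaf6, the p53 target Trp53inp1, Gem and 2610301B20Rik, and the 7 at chr9:83027806-83751570 near Phip, Hmgn3, Lca5 and Elovl4. One of the stretches with 6 members held Tmco5, Spred1 and Rasgrp1 on chromosome 2. Another held Ccn1, Ddah1, Syde2, Lpar3 and Ssx2ip on chromosome 3. The others lay at Pik3cg, Nampt, Sypl and Cdhr3 on chromosome 12, at Tfap2a, Gcnt2, Nedd9 and Tmem170b on chromosome 13, and at Ccdc112, Fem1c, Commd10 and Sema6a on chromosome 18. Stretches with 1 member numbered 282.

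Members near genes of 21 lists were counted per Mb of the lists' own flanking sequence, since such genes differ in the room around them. The median protein-coding gene had 14.5 kb of flanking sequence, and the median gene of the epithelial transcription factor list 125 kb. The median distances given for lists below were not adjusted for this room. By this measure 18 of the 21 lists lay above the 1.23 members per Mb of all genes, and 18 lay above the 1.43 of the narrow regions for that width. The counts are a description of genes chosen with results of these data known, and most lists rest on 1 to 7 members.

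**Figure D5:**
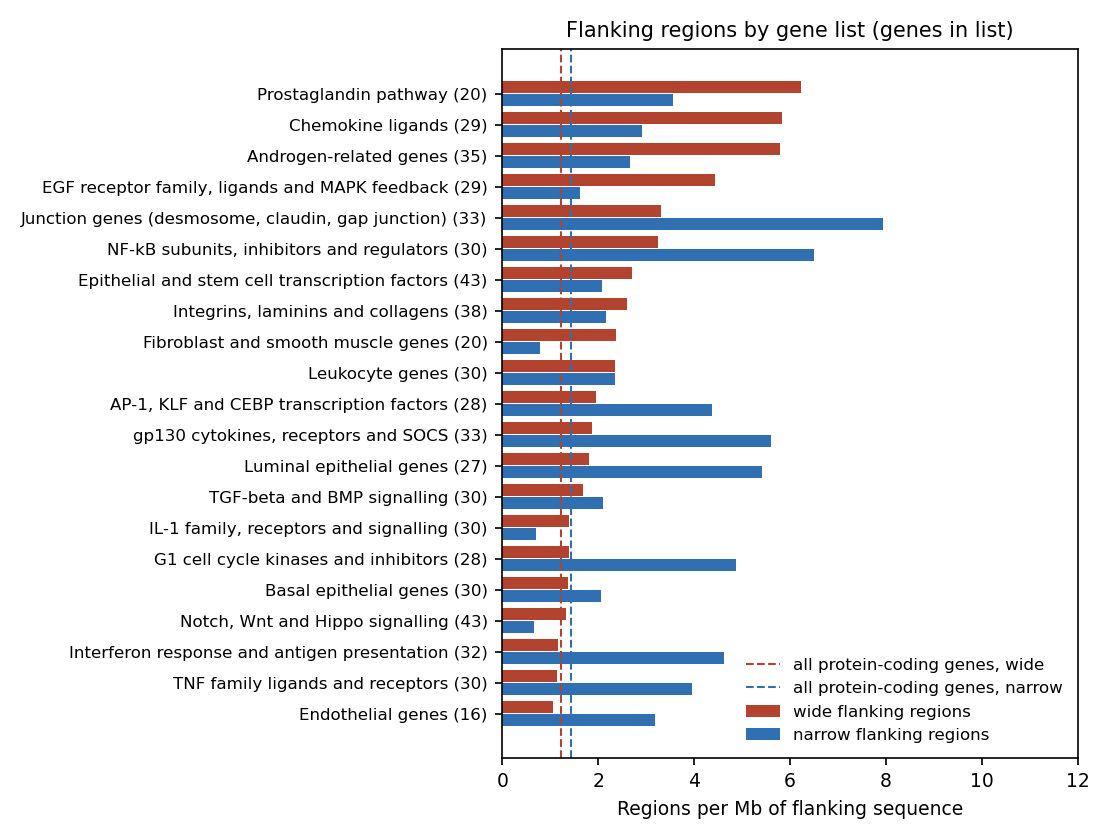
Flanking regions per Mb of flanking sequence (x axis) for each gene list, with its number of genes in parentheses (y axis), for wide (red bars) and narrow regions (blue bars); dashed lines give the values over all protein-coding genes, 1.23 and 1.43. The longest red bars are those of the prostaglandin, chemokine, androgen and EGF lists (6.23, 5.83, 5.79 and 4.44 per Mb), and in each of these 4 the blue bar is shorter.

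Androgen-related genes had 13 members at 8 of 35 genes (22.9%, against 3.84% of all genes), 5.79 per Mb, with a median distance of 42.5 kb against 26.5 kb for all members. The narrow regions numbered 6, 2.67 per Mb. Androgens sustain the secretory epithelium of the prostate. Hpgd, which encodes the enzyme that inactivates prostaglandins, had 3, at 61.8 kb upstream and at 14.7 and 86.4 kb downstream. Mme, the gene of the surface peptidase neprilysin, had 1 on each side at 65.9 and 29.8 kb, and Steap4, a metalloreductase gene, had 2 upstream at 67.9 and 42.5 kb. Tmprss2, a serine protease gene, had 1 at 37.4 kb with Ripk4 44.9 kb away on the other side. Tsc22d3, the gene of the glucocorticoid-induced leucine zipper, had 1 at 10.2 kb and Nedd4l, a ubiquitin ligase gene, 1 at 63.6 kb. Fkbp5, a steroid-induced chaperone gene, had none, and the nearest wide region was 1612 kb away.

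In the prostaglandin pathway, 4 of 20 genes (20.0%, against 3.84% of all genes) had 7 members. Per Mb this was 6.23, against 1.23 over all genes. Of these members, 3 were those of Hpgd, which is in both lists. Prostaglandins are lipid signals made from arachidonic acid by cyclooxygenases and read by G protein-coupled receptors. Ptgs2, the inducible cyclooxygenase gene, had 1 member at 58.2 kb on the side of Pla2g4a (chr1:150041646-150042096), which encodes the phospholipase that frees arachidonic acid, and 2 narrow flanking regions. Of the receptors, Ptger3 had 2 members at 64.0 and 69.5 kb, and Ptgfr had 1 at 74.8 kb, the one whose sequence with the CTCF match is printed above. The members of this pathway lay far from the genes, with a median of 64.0 kb.

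EGF receptor family genes, their ligands and the feedback inhibitors of the MAPK cascade below them had 11 members at 9 of 29 genes (31.0%). Per Mb this was 4.44, against 1.62 for the 4 narrow regions. The values over all genes were 3.84% and 1.23 per Mb for members, and 4.4% and 1.43 per Mb for narrow flanking regions. Outside the crowded stretch of chromosome 5, 8 members at 6 genes remained. They lay at negative regulators of the pathway and at a transcription factor under it: Lrig1 at 17.9 kb upstream, Spry1 at 23.1 kb, Spred1 at 28.5 and 32.7 kb, Spry2 at 44.8 kb, the phosphatase gene Dusp6 at 86.4 and 93.3 kb, and Etv5 at 39.9 kb. Lrig1 marks stem cells in several epithelia and restrains EGF receptors.

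Chemokine ligand genes had 6 members at 5 of 29 genes (17.2%, against 3.84% of all genes), 5.83 per Mb against 1.23. Of these, 3 members at 3 genes lay outside the chromosome 5 stretch. Those were Ccl28, a chemokine of mucosal epithelia, at 3.99 kb, Cxcl12, the ligand of CXCR4, at 49.6 kb, and Ccl25 at 53.7 kb. NF-kB genes had 6 narrow regions at 4 of 30 (13.3%, against 4.4% of all genes), 6.50 per Mb against 1.43. They had 3 members at 2 of 30 (6.67% against 3.84%), 3.25 per Mb against 1.23. NF-kB is the transcription factor that inflammatory receptors switch on, and both genes encode its inhibitors: Nfkbia had 1 at 10.6 kb downstream (chr12:55478592-55479042), and Tnfaip3 had 2 upstream at 38.6 and 47.0 kb (chr10:19053749-19054199 and chr10:19062167-19062617). The second of these lay 0.387 kb from the lncRNA gene Gm51814, and part of the sequence upstream of that gene's start is printed above.

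Interleukin-1 genes had 2 members at 2 of 30 (6.67%, against 3.84% of all genes). Per Mb this was 1.40, near the 1.23 over all genes. Interleukin-1 binds a receptor that signals through the kinase TAK1 to NF-kB, and the receptor antagonist encoded by Il1rn blocks it. Il1b, one of the ligand genes, had 1 member 40.8 kb upstream (chr2:129411700-129412150), and Map3k7, which encodes TAK1, had 1 at 39.3 kb. The other ligand gene, Il1a, had no member but a wide region 2.379 kb from an end, just under the lower limit. Il1rn and Il1r1 had none, with the nearest wide region 1325 kb from Il1rn and 156 kb from Il1r1. Il1rn had narrow regions only, 1 inside the gene and 1 at an end.

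The NF-kB list was not alone in holding more narrow than wide flanking regions: 3 further inflammatory lists did. Their wide regions numbered 1.13 (TNF family), 1.87 (gp130) and 1.15 (interferon) per Mb, against 1.23 over all genes, and their narrow ones 3.96, 5.599 and 4.62, against 1.43. This was not particular to inflammatory lists. It also held for the basal, luminal, AP-1, KLF and CEBP, G1 cell cycle, TGF-beta, junction and endothelial lists. The chemokine, interleukin-1 and prostaglandin lists held more wide than narrow flanking regions. Over all genes, 3.84% had a member and 4.4% a narrow flanking region. The TNF family had 2 genes of 30 with a member, Tnfsf4 (OX40 ligand) at 26.9 kb and Edar (ectodysplasin receptor) at 33.5 kb, and 7 genes with a narrow flanking region. The gp130 cytokine list had 2 of 33, Il6st, the gene of gp130 itself, at 24.6 kb and Osmr, the oncostatin M receptor gene, at 34.9 kb between it and Lifr, beside 5 genes with a narrow region. The interferon and antigen presentation list had 1 of 32, Irf2 at 28.7 kb, and 3 with a narrow region. These widths were not compared by a test within a list.

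Transcription factors of epithelial and stem cells had 13 members at 10 of 43 genes (23.3%, against 3.84% of all genes). With their wide flanks this was 2.71 per Mb, against 2.09 for narrow regions, beside 1.23 and 1.43 over all genes. Trp63, which encodes p63, the factor that basal epithelial cells depend on, had 1 at 7.13 kb toward P3h2 (chr16:25898988-25899438) and 2 wide regions inside the gene. Tfap2a, an AP-2 gene of surface epithelium, had 3 at 11.4, 62.5 and 67.5 kb. Members near Nfia lay at 13.3 kb, near Bcl11a at 32.3 and 60.7 kb, near Grhl2 at 68.0 kb, near Nfib at 82.8 kb and near Foxq1 at 86.4 kb. Some of the most distant lay inside lncRNA genes: that of Myc (89.1 kb, chr15:62079223-62079673) inside Pvt1, that of Foxa2 (67.0 kb) inside 9030622O22Rik and that of Sox4 (81.5 kb) inside 2610307P16Rik. Foxa2 and Foxq1 encode forkhead factors. The median distance was 67.0 kb, longer than the 26.5 kb of all members. The flanks of these genes were also longer, with a median of 125 kb against 14.5 kb over all genes.

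AP-1, KLF and CEBP genes had 4 members, all at KLF zinc finger genes: Klf12 at 14.3 kb, Klf13 at 18.04 kb, Klf5 at 40.5 kb and Klf6 at 67.2 kb. No AP-1 or CEBP gene of the list had one. This was 4 of 28 genes (14.3%), beside 6 with a narrow region (21.4%). Basal genes had 2 of 30 (6.67%), Trp63 and Snai2 (91.0 kb), which encodes the repressor Slug, beside 3 with a narrow region (10.0%). Luminal genes had 2 of 27 (7.41%), among them Grhl2, beside 4 with a narrow region (14.8%). Over all genes, 3.84% had a member and 4.4% a narrow flanking region. The keratin genes that mark the layers, Krt5 and Krt14 for basal and Krt8 for luminal cells, had no member, and the nearest wide region was 1801, 2143 and 1510 kb away. Krt14 had 1 narrow flanking region, and Krt5 and Krt8 had none. Absence from the list does not show that chromatin at these genes was closed.

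Notch, Wnt and Hippo genes had 4 members at 3 of 43 (6.98%), namely the Wnt receptor gene Fzd1 at 9.83 and 64.5 kb and the YAP targets Ccn1 at 24.9 kb and Ccn2 at 60.3 kb. In the TGF-beta and BMP list, 3 of 30 had members: the ligand gene Tgfb2 at 3.999 kb, the receptor gene Bmpr2 at 9.10 kb, and Thbs1, whose product activates latent TGF-beta, at 24.8 and 69.0 kb. G1 cell cycle genes had Myc and the antiproliferative gene Btg1 (75.2 kb), 2 of 28 (7.14%), beside 6 genes with a narrow region (21.4%). The shares over all genes were 3.84% and 4.4%.

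Adhesion genes had members mostly far out, at medians of 63.4 kb for the integrin, laminin and collagen list and 61.8 kb for the junction list. Among integrins, laminins and collagens, 5 of 38 genes (13.2%) had 6: Itgb6, the gene of an epithelial integrin chain, at 6.51 kb, the collagen receptor gene Itga1 at 7.79 kb, Itgb8 at 52.5 and 91.9 kb, Col1a2 at 74.4 kb and Col12a1 at 76.0 kb. Itga1 also held 5 wide regions inside the gene, and its member is the one over the start of Gm41075 printed above. Junction genes had 5 of 33 (15.2%): the desmocollin gene Dsc1 at 10.8 kb, the gap junction gene Gja1 at 34.7 kb, the plakophilin gene Pkp4 at 61.8 kb, Tjp1 at 69.7 kb and the claudin gene Cldn1 at 74.7 kb. Of the same junction genes, 10 of 33 (30.3%) had a narrow flanking region. Among all genes the shares were 3.84% with a member and 4.4% with a narrow flanking region.

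Genes of other cell types also had members near them. Leukocyte genes had 2 of 30 (6.67%, against 3.84% of all genes). They were the macrophage receptor gene Mrc1 at 9.97 kb and Ptprc, the gene of the gated-out antigen CD45, at 76.1 kb. Endothelial genes had 1 of 16 (6.25%), Erg at 11.3 kb. Fibroblast and smooth muscle genes had 2 of 20 (10.0%), Dcn at 9.84 and 42.6 kb and Acta2 at 10.3 kb. The densities of these 3 lists, 2.35, 1.06 and 2.37 per Mb against 1.23 over all genes, rest on 2, 1 and 3 members. Narrow flanking regions numbered 2.35, 3.19 and 0.789 per Mb in the same lists, against 1.43 over all genes. The part of other cells in the list was not tested.

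The centres of 223 members (22.7%) lay inside or within 1 kb of a non-coding gene, and for 201 of these it was a lncRNA gene. The share among narrow flanking regions was 21.3% (242 of 1135, difference 1.41 points, -2.12 to 4.97, Fisher's exact test, adjusted p = 0.461), so the interval allows members to be up to 4.97 points higher or 2.12 points lower.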

How the data were processed

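Nuclei of 6 sorted samples (3 naive, 3 inflamed) were profiled by ATAC-seq. The authors deposited 1 list of 6502 merged regions, with chromosome, start and end in its 3 columns and no other value; 3291 were 451 bases (wide) and 3210 were 143 bases (narrow). BWA 0.7.17-r1188, SAMtools, HOMER 4.8, edgeR and the build mm10 are named in the submitters' processing notes; what each did, the depth, and how widths were set are not given in the sources used here. Each region was placed by its centre against RefSeq gene spans (GRCm38.p6, 21887 protein-coding genes on the 21 chromosomes used). Densities divide counts by the bases outside protein-coding genes in the same distance range. Shares were compared with two-sided Fisher's exact tests (scipy 1.17.1), adjusted by Benjamini-Hochberg over 4 share tests, 2 end region tests or 21 chromosomes (statsmodels 0.14.6), with Clopper-Pearson and Newcombe intervals at 95% that cover counting error only; neighbouring regions are not independent. Scripts were tested on simulated data. Motifs, 30 in all, were matched in RefSeq start windows, and capitals need at least 7 letters and 12 bits. Of the 21 gene lists, 3 genes found no match.

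The members and lists were chosen with earlier results of these data known. Named genes were up to 4 per list with the closest members, the 12 with most members, the 6 largest groups, 3 on each side of both limits, and Il1rn, Il1a, Il1b, Il1r1, Tnfaip3, Trp63, Krt5, Krt14, Krt8 and Fkbp5. Other list genes with a member were added after their values were seen. Some named genes are not reported here.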

Additional observations from a re-analysis of the deposited data

How the results depend on the processing

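No paired analysis was possible because the files used here give coordinates with no value for any library, and for the same reason no replicate could be left out. Without a mm10 genome, the planned motif shares and GC content over whole regions were not run. With all RefSeq genes in place of protein-coding ones, the difference in the share within 25 kb was -4.78 points and passed (adjusted p = 0.0268); its other 4 alternatives ran from -4.48 to -0.300 and did not. The neighbour difference was -2.60 points and no longer passed with a 50 kb window (adjusted p = 0.242), and was 0.877 in the other direction against wide regions deep inside genes; the cause was not tested. Its other 6 alternatives ran from -10.3 to -4.41 points and all passed. The windows of 50 and 1 kb and the counting once of close narrow regions were chosen after seeing the data. The end region difference ran from 6.12 points (all RefSeq genes, 9.81% against 3.68%) to 12.6 and passed in all 4. The non-coding difference ran from 0.370 to 1.95 and never passed. The count of chromosomes fell from 5 to 1 against deep wide regions, with none shared, and was 4 or 5 elsewhere; with all RefSeq genes chromosome 19 replaced 11. Genes nearest to a member numbered 662 to 933. These tests treat regions as independent, and no depth or signal is known, so the list cannot show how strongly a region was accessible, in which group, or with what error between replicates.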
